A study of Mus musculus with 10 samples.

Results

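AMPA receptors carry most fast excitatory transmission in the brain, and the 10 genes described here encode the auxiliary subunits that travel with them: the transmembrane AMPA receptor regulatory proteins (TARPs) Cacng2, Cacng3, Cacng4 and Cacng8 of type I and Cacng5 and Cacng7 of type II, the cornichons Cnih2 and Cnih3, Shisa6, and Gsg1l. They were taken by symbol from the mouse annotation of the genome build GRCm38, which gave 1 gene identifier for each of them among the 54838 identifiers counted. All 10 were among the 16806 genes that passed the filter on low counts. The measured RNA was ribosome-bound RNA obtained by translating ribosome affinity purification (TRAP), in which ribosomes tagged with EGFP-L10a are pulled down with antibodies to EGFP. The 5 dorsal and 5 ventral libraries came from male mice of about 10 weeks on the C57BL/6 strain, all of the genotype Drd2-Cre;Eef1a1LSL.eGFPL10a/+ (MC-TRAP), so that both groups carried the Cre transgene and 1 copy of the tagged ribosomal protein. The hippocampi of 5 mice were pooled for each TRAP, both parts having been dissected from the same set of mice, the ventral part being 2 times as long as the dorsal part and its ventral subiculum removed. Which dorsal and ventral pools share mice is not given in the sources used here. The Drd2-Cre transgene (line ER44) marks hilar mossy cells of the dentate gyrus and also some GABAergic interneurons and other Drd2-expressing cells, so the samples are a mossy-cell-enriched population and not a pure one. A library is a pool of mice, and a p-value measures the spread between pools.

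The pore of an AMPA receptor is a tetramer of the subunits encoded by Gria1 to Gria4, and auxiliary subunits bind it from the side in the membrane. TARPs bring receptors to the surface and anchor them at the synapse through scaffold proteins, and type I TARPs and cornichons slow the closing and desensitization of the channel. Shisa6 holds receptors at the synapse and lessens their desensitization, while Gsg1l, a more distant relative of the TARPs, slows recovery from desensitization. Mossy cells receive very large excitatory synapses from granule cells, and which auxiliary subunits a cell makes sets how its AMPA receptors open, close and recover.

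Counts on genes ranged from 11138676 to 20594364 per library, and the members had between 55 and 4542 counts in a library, well above the 3 counts that were taken as the floor (0.146 to 0.269 CPM, the count scaled by the TMM-adjusted size of the library). The groups differed in ways that are not about these genes. The share of read pairs outside genes was 21.8% to 33.9% in dorsal and 11.6% to 19.3% in ventral libraries, and mitochondrially encoded mRNA took 2768 to 3516 CPM against 446 to 1254 CPM. The library Dorsal 1 stood apart: its genes with a GC content of at least 60% had a median deviation of -0.679 on the log2 scale, against -0.085 to 0.281 in the other 9 libraries, and results that rest on it are given with and without it. Of the members, Cacng8 and Cnih2 have such a GC content, with 65.0% and 62.3% of the bases of the longest transcript.

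Levels between genes were compared per length, as TPM, the count per exonic base of a gene scaled to the same total in every library. Cnih2, a cornichon, had the highest mean level of the 10 genes at 231 TPM, and Shisa6 followed with 117 TPM. Cnih2 exceeded Shisa6 in 9 of 10 libraries, Dorsal 1 being the exception. Below them Cacng7, Cacng2, Cacng3 and Cnih3 had means of 75.4, 72.7, 66.7 and 57.7 TPM, and no gene of these 4 exceeded the next in more than 7 of the 10 libraries. Their order therefore was not stable across libraries. Cnih3 exceeded Cacng4, the next gene, in all 10 libraries. The 4 genes of lowest level were Cacng4, Cacng8, Cacng5 and Gsg1l, with means of 22.8, 21.7, 13.4 and 13.2 TPM, and Cacng5 was above Gsg1l in 5 of 5 dorsal but in 1 of 5 ventral libraries. Cacng2 had the most counts among the TARPs, and its level per length was like that of Cacng7 because its exons span 5510 bases and those of Cacng7 span 2441 bases.

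**Figure D1:**
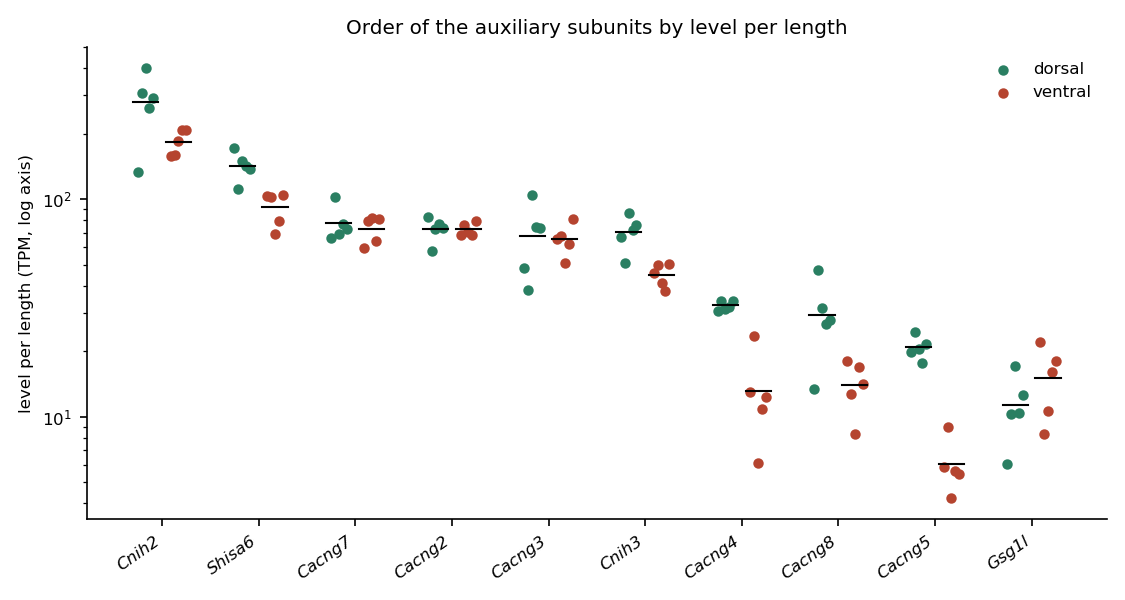
Level per length of each auxiliary subunit in TPM on a log axis, with 1 point per library, dorsal and ventral libraries side by side and a bar at each group's mean. Cnih2 and Shisa6 lie at the top, and Cacng4, Cacng8, Cacng5 and Gsg1l form the low end, where Cacng4 and Cacng5 have dorsal points above all ventral points.

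The comparison asked which auxiliary subunits differed between dorsal and ventral mossy-cell-enriched RNA. Cacng5, Cacng4 and Cacng8 were higher in dorsal libraries, by 3.25-fold, 2.33-fold and 1.95-fold, and no member was called higher in ventral libraries. Calls here require 2 things, an adjusted p below 0.05 in edgeR's quasi-likelihood test (Benjamini-Hochberg over all 16806 genes) and a log2 ratio of mean CPM plus 1 beyond 0.58 in either direction. The 3 of 10 members called dorsal-enriched stand beside 15.7% of all genes tested, and the 0 called ventral-enriched beside 9.85%. At an adjusted p below 0.05 without the fold threshold there were 5 members, all higher in dorsal libraries. Of all 16806 genes, 3191 passed with dorsal and 2454 with ventral libraries higher, 33.6% in either direction. Cnih3 and Shisa6 are the additional members, with log2 fold changes of 0.52 and 0.51. The median log2 fold change of the 10 genes was 0.495, with a range of -0.56 to 1.70, beside -0.004 over all genes tested. Dorsal and ventral libraries did not overlap in CPM for 4 members, Cacng4, Cacng5, Cnih3 and Shisa6, all higher in dorsal libraries, a pattern found in 9.81% of all genes, and for 0 members with ventral libraries higher, found in 8.36%. In these bulk samples, fewer cells of a type and less RNA per cell cannot be told apart.

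**Figure D2:**
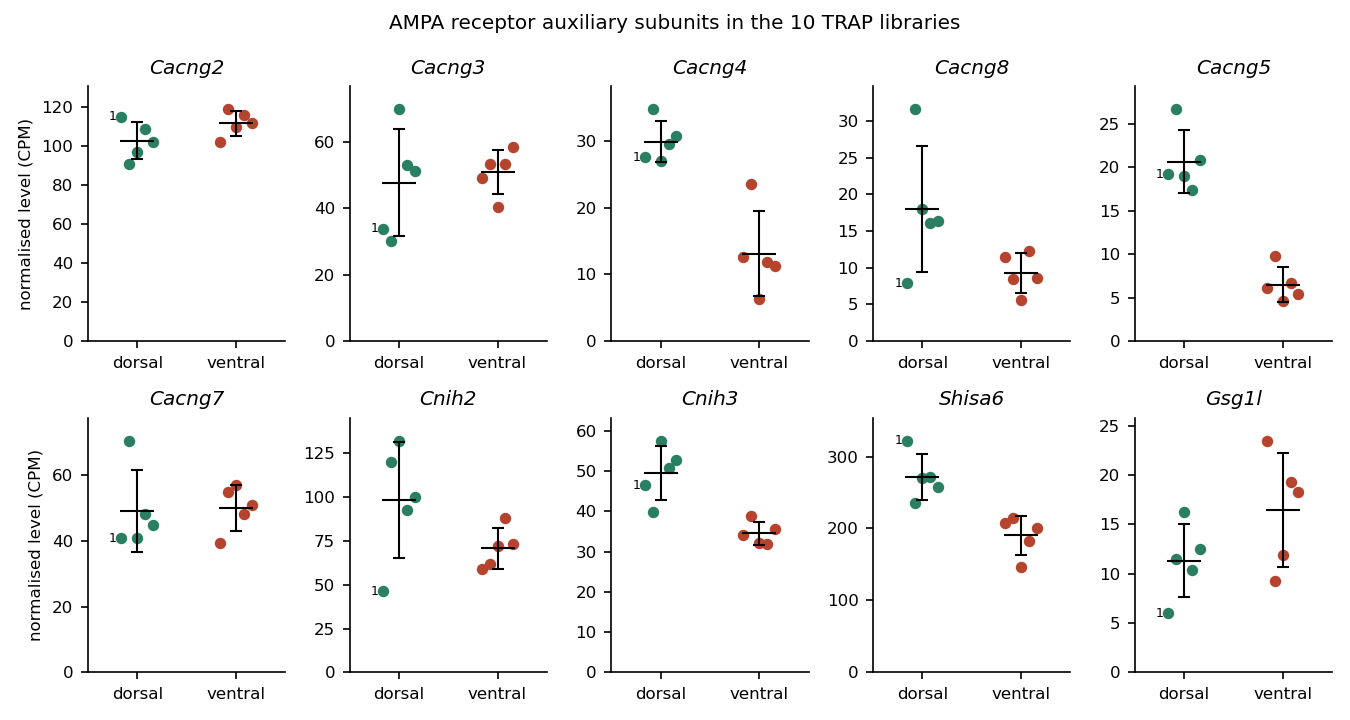
TMM-scaled CPM of each auxiliary subunit in the 5 dorsal and 5 ventral libraries, 1 point per library, with the mean and SD of each group as a bar, the digit 1 beside the library Dorsal 1, and an axis from 0 in each panel. The groups are apart for Cacng4, Cacng5, Cnih3 and Shisa6, while Dorsal 1 falls among or below the ventral points for Cacng8, Cnih2 and Gsg1l.

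**Figure D3:**
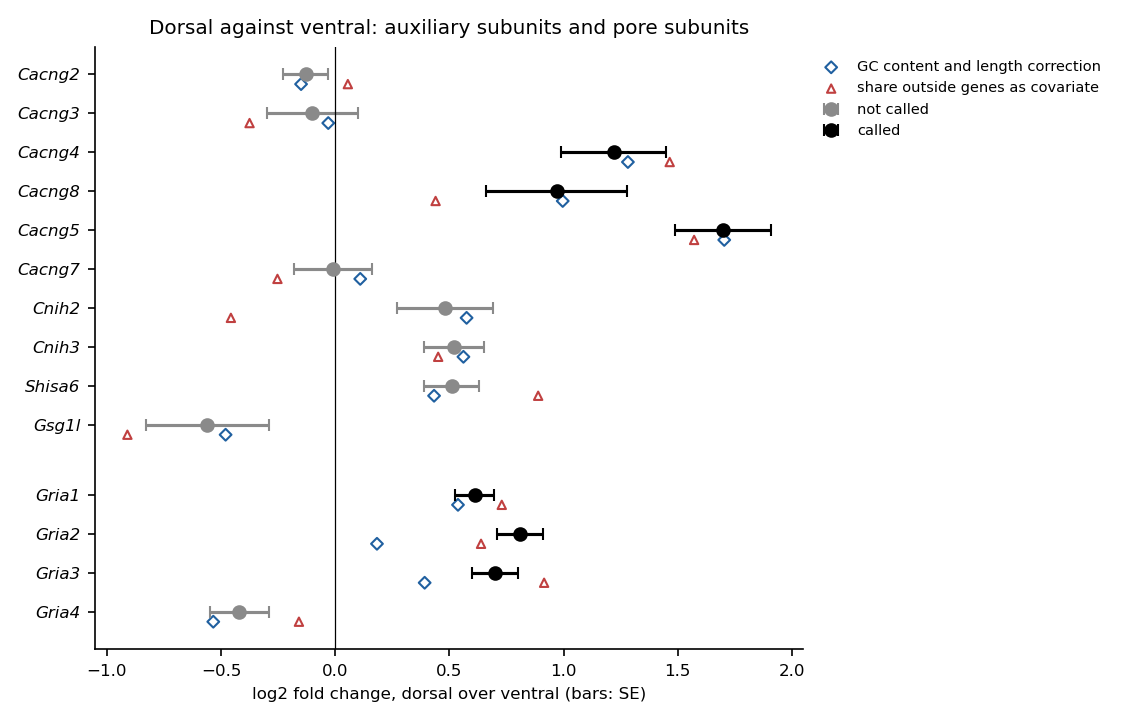
Log2 fold change of dorsal over ventral libraries with its SE for the 10 auxiliary subunits and, below them, the 4 pore subunits, black where called and grey where not. Open diamonds show the value corrected for GC content and exonic length and open triangles the value adjusted for the no-feature share of each library. Cacng5 and Cacng4 stay above 1 with both, although Cacng4 is not called with the no-feature adjustment, and Cnih2 changes side with it.

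Of the 4 type I TARPs, Cacng4 and Cacng8 were called and Cacng2 and Cacng3 were not. Cacng4 (ENSMUSG00000020723, chromosome 11, 107732357 to 107794557, minus strand) encodes a TARP that slows the decay of AMPA receptor currents. Its level was 27.6, 34.8, 27.0, 29.5 and 30.7 CPM in dorsal libraries 1 to 5 and 12.6, 23.6, 6.24, 11.8 and 11.3 CPM in ventral libraries 1 to 5. The lowest dorsal library lay above the highest ventral one, Ventral 2, and the 4 other ventral libraries were at 12.6 CPM or lower. The log2 fold change was 1.22 with an SE of 0.23 (adjusted p = 0.00177). Adjusted for the share of read pairs on no gene it was 1.46 with an SE of 0.468 and not called (adjusted p = 0.0703). That share does not overlap between the groups, so this adjustment widens the SE.

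Cacng8 (ENSMUSG00000053395, chromosome 7, 3390683 to 3415648, plus strand) encodes the TARP best known from the hippocampus. It had 7.89, 31.6, 18.0, 16.1 and 16.4 CPM in dorsal libraries 1 to 5 and 11.4, 8.44, 5.56, 12.3 and 8.58 CPM in ventral libraries 1 to 5. Every dorsal library but Dorsal 1 was above all ventral libraries, and Dorsal 1 lay below 4 of them. The log2 fold change was 0.97 with an SE of 0.31 (adjusted p = 0.0261). It was 1.13 without Dorsal 1 (adjusted p = 0.00634) and 0.66 without Dorsal 2 (adjusted p = 0.0653), so that the call was lost without the library of highest level. The call was also lost without Ventral 3 (adjusted p = 0.0504) and without Ventral 5 (adjusted p = 0.0614), under a block on replicate number (0.88, adjusted p = 0.055) and with adjustment for the share of read pairs on no gene (0.44, SE 0.623, adjusted p = 0.713).

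Cacng2 (ENSMUSG00000019146, chromosome 15, 77991748 to 78120028, minus strand) encodes stargazin, the TARP whose loss in stargazer mice first showed that AMPA receptors need such partners. Its level was 115, 90.9, 97.0, 109 and 102 CPM in dorsal and 102, 119, 110, 116 and 112 CPM in ventral libraries. The groups overlapped, and the coefficient of variation was 9.19% and 5.67%, the lowest of the members in either group. Dorsal over ventral, this gave a log2 fold change of -0.13 with an SE of 0.10 (adjusted p = 0.352). Of its exonic bases 5.86% are shared with a gene on the opposite strand, A730060N03Rik, and strand use in the counting is not given in the sources used here.

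Cacng3 (ENSMUSG00000066189, chromosome 7, 122670492 to 122769393, plus strand), a further type I TARP of forebrain neurons, had 33.9, 30.1, 69.9, 53.1 and 51.4 CPM in dorsal and 49.2, 53.4, 40.5, 53.3 and 58.4 CPM in ventral libraries. The dorsal libraries spread over both sides of the ventral ones. The difference, a log2 fold change of -0.10 with an SE of 0.20, did not pass the test (adjusted p = 0.743).

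The type II TARPs diverged. Cacng5 (ENSMUSG00000040373, chromosome 11, 107874605 to 107915055, minus strand) encodes a TARP that acts mainly on calcium-permeable AMPA receptors, and it had the largest log2 fold change of the 10 genes. It had 19.2, 26.7, 19.0, 17.4 and 20.9 CPM in dorsal libraries 1 to 5 and 6.09, 9.75, 4.64, 6.63 and 5.37 CPM in ventral libraries 1 to 5. Every dorsal library lay above every ventral one, and Ventral 2 was again the highest of the ventral libraries. This corresponds to a log2 fold change of 1.70 with an SE of 0.21 (adjusted p = 0.000117), and it ranged from 1.58 to 1.85 when 1 library at a time was left out.

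Cacng7 (ENSMUSG00000069806, chromosome 7, 3332955 to 3368221, plus strand), the other type II TARP, was near level between the groups. It had 40.8, 70.6, 41.0, 48.4 and 44.9 CPM in dorsal and 39.4, 54.9, 57.1, 48.2 and 51.1 CPM in ventral libraries. Dorsal 2 was the highest of all 10 libraries, and the other 4 dorsal libraries lay within the ventral range. With a log2 fold change of -0.01 and an SE of 0.17, Cacng7 was not called (adjusted p = 0.969).

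Cacng5 has 2 start sites in RefSeq, and counts per gene do not separate them. The 250 bases before each are shown because Cacng5 changed most, and those of Cnih2 and Cnih3 because these paralogs share a role and differ in level. The sequences are RefSeq's on GRCm38.p6, written 5' to 3' on the strand of the gene, with GC boxes (GGGCGG or its reverse complement CCGCCC) in capitals. Cacng5 upstream start is chr11:107915056-107915305 on the minus strand, Cacng5 internal start is chr11:107911363-107911612 on the minus strand, Cnih2 is chr19:5098522-5098771 on the minus strand, and Cnih3 is chr1:181352378-181352627 on the plus strand.
Cacng5 upstream start: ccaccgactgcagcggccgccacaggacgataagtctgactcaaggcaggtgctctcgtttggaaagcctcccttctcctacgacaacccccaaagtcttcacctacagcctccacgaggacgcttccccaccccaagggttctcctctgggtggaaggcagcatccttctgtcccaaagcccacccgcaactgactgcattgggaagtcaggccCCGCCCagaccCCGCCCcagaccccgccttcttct
Cacng5 internal start: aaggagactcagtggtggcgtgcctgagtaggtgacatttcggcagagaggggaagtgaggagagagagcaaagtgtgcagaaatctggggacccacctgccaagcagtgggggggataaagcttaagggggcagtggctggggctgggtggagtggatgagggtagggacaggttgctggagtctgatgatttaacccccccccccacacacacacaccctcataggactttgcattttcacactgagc
Cnih2: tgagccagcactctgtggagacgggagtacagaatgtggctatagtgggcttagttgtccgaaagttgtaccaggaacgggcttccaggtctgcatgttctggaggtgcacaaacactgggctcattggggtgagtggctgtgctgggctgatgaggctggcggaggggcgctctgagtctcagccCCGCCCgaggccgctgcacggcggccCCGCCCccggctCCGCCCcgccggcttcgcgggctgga
Cnih3: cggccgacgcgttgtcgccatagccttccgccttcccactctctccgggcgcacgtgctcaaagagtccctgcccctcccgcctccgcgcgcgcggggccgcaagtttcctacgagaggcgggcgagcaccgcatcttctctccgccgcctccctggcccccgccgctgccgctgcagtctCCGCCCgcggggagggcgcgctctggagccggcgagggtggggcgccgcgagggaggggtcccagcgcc
The upstream window of Cacng5 held 2 GC boxes and 12 CpG dinucleotides, and the internal one held no GC box and 2 CpG. That of Cnih2 held 3 GC boxes and 17 CpG, and that of Cnih3 held 1 GC box and 36 CpG, more CpG than 97.4% of windows. A GC box on either strand was present in 32.7% of the 32841 windows of this length, whose median CpG count was 6. Neither the TATA motif TATAAA nor the cAMP response element TGACGTCA occurred on either strand in these 4 windows, and they occur in 12.4% and 1.55% of all windows. The table held windows for 7 of the 10 genes. Cacng4, Shisa6 and Gsg1l had no entry.

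Within the summed CPM of the 6 TARPs, the make-up differed between the groups. Cacng5 made up 7.69 ± 1.13% of TARP CPM in the dorsal group and 2.66 ± 0.62% in the ventral group (mean ± SD, n = 5 each, two-sided exact permutation p = 0.00794, adjusted over the 7 shares tested p = 0.0278). This p is the smallest that 5 against 5 libraries allow. Cacng4 made up 11.2 ± 0.859% and 5.32 ± 2.21% (SD, n = 5 each, exact permutation p = 0.00794, adjusted p = 0.0278). For both genes the lowest dorsal share was above the highest ventral share, 6.37% against 3.63% for Cacng5 and 9.93% against 8.79% for Cacng4.

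Cacng2 was the largest share in every library and took 38.6 ± 5.59% in the dorsal and 46.4 ± 1.88% in the ventral group (mean ± SD, n = 5 each, exact permutation p = 0.0397, adjusted p = 0.0926). The dorsal libraries ranged from 31.9% to 47.0% and the ventral ones from 44.1% to 49.2%, so the groups overlapped through Dorsal 1. Without Dorsal 1 the share of Cacng2 was lower in dorsal libraries by a difference of -9.93 percentage points (exact permutation p = 0.0159, adjusted p = 0.0278). Cacng8 took 6.59 ± 2.85% and 3.84 ± 1.16% (SD, n = 5 each, exact permutation p = 0.0556, adjusted p = 0.0972), a difference that grew to 3.60 percentage points without Dorsal 1 (exact permutation p = 0.0159, adjusted p = 0.0278). The shares of Cacng3, with means of 17.8% and 21.1%, and of Cacng7, with 18.2% and 20.7%, did not pass the test (exact permutation p = 0.278 for each, adjusted p = 0.324). Without Dorsal 2, the dorsal library with the highest Cacng7 share, that share differed by -4.16 percentage points (exact permutation p = 0.0159, adjusted p = 0.037). This p is the smallest that 5 against 4 libraries allow. Dorsal 2 was singled out by this same share, so the value is a description and not a test result. Computed per kilobase of exonic length, the shares of Cacng5 were 6.96 ± 0.938% and 2.45 ± 0.575% and those of Cacng4 10.8 ± 0.882% and 5.25 ± 2.19% (SD, n = 5 each), with the same exact permutation p-values. On that scale Cacng7 had the largest mean share in both groups, 25.9% against 24.5% for Cacng2 in dorsal and 30.0% against 29.7% in ventral libraries. Shares of 1 sum are tied to each other, so a gene's share can fall because another gene rose.

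**Figure D4:**
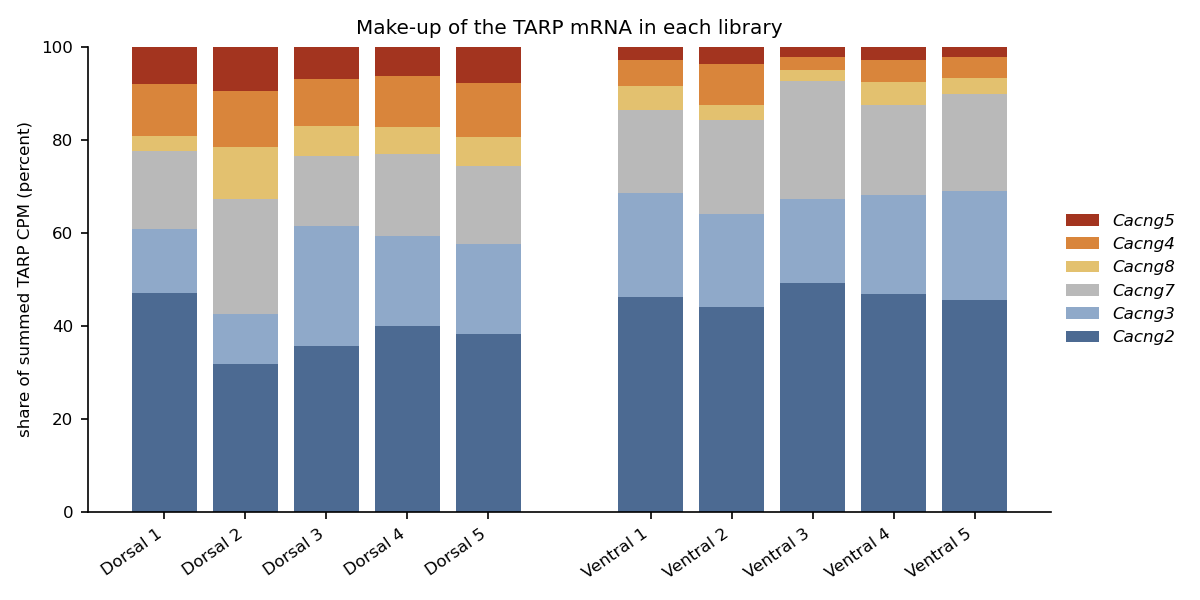
Share of each TARP in the summed CPM of the 6 TARPs, in percent, with 1 stacked bar for each of the 5 dorsal and 5 ventral libraries. The Cacng4 and Cacng5 segments at the top are larger in all dorsal bars than in any ventral bar, and Cacng2 at the bottom is the largest segment in every bar.

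The 2 genes of highest change lie next to each other. On chromosome 11 the protein-coding genes follow in the order Cacng1, Cacng4, Cacng5 and Prkca, with 80.0 kb between Cacng4 and Cacng5, and on chromosome 7 in the order Cacng7, Cacng8 and Cacng6, with 22.5 kb between Cacng7 and Cacng8. In the first cluster Cacng1, which encodes a calcium channel subunit of skeletal muscle, was at 0 counts in 9 libraries and had 1 count in the other. Prkca, which encodes a protein kinase C, was chosen after its values were seen. It had 368 to 471 CPM in dorsal and 237 to 289 CPM in ventral libraries (log2 fold change 0.62, SE 0.10, adjusted p = 0.00054). Cacng6, a calcium channel subunit beside Cacng8, had 0.389 to 3.48 CPM in dorsal and 0.0843 to 0.695 CPM in ventral libraries (adjusted p = 0.097). After each group's mean was removed, Cacng4 and Cacng5 had the highest correlation of the 45 pairs of members across the 10 libraries (Pearson r = 0.88 of log2 CPM plus 1), followed by Cacng3 with Cnih3 (r = 0.86). Cacng7 and Cacng8 are given with their own values above, and no test was made of neighbourhood.

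The cornichons assist export of AMPA receptors from the endoplasmic reticulum and stay with them at the surface. Cnih3 (ENSMUSG00000026514, chromosome 1, 181352628 to 181460641, plus strand) had 46.5, 39.9, 57.5, 50.7 and 52.8 CPM in dorsal and 34.1, 38.9, 32.1, 31.8 and 35.7 CPM in ventral libraries. The groups did not overlap, but Dorsal 2 and Ventral 2 were close. Its log2 fold change of 0.52, with an SE of 0.13 (adjusted p = 0.00823), stayed below the fold threshold.

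Cnih2 (ENSMUSG00000024873, chromosome 19, 5092868 to 5098521, minus strand) had 46.2, 120, 132, 92.4 and 100 CPM in dorsal and 58.7, 61.5, 72.1, 88.0 and 73.4 CPM in ventral libraries. Dorsal 1 was the lowest of all 10 libraries and the other 4 dorsal libraries were above every ventral library. The log2 fold change was 0.48 with an SE of 0.21 (adjusted p = 0.0953) with all libraries and 0.65 without Dorsal 1 (adjusted p = 0.00452), when the gene passed the call. Corrected for GC content and exonic length, with all libraries, it was 0.575 with an SE of 0.132 (adjusted p = 0.00525), and Cnih2 was not called. Adjusted for the share of read pairs on no gene, which does not overlap between the groups, the value was -0.46 with an SE of 0.348 (adjusted p = 0.452). Cnih2 made up 64.9 ± 9.38% of the CPM of both cornichons in the dorsal and 66.9 ± 4.83% in the ventral group (mean ± SD, n = 5 each, exact permutation p = 0.738, adjusted p = 0.738), and the dorsal share was 49.8% in Dorsal 1 and 64.6% to 75.0% in the others. Without Dorsal 1 the difference turned from -1.96 to 1.81 percentage points (exact permutation p = 0.587, adjusted p = 0.587).

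Shisa6 (ENSMUSG00000053930, chromosome 11, 66211725 to 66525964, minus strand) had the most counts of the 10 genes, which go with its exonic length of 7449 bases. Its level was 322, 235, 270, 272 and 258 CPM in dorsal and 208, 215, 147, 182 and 201 CPM in ventral libraries. Every dorsal library lay above every ventral one. On the log2 scale the fold change was 0.51 with an SE of 0.12 (adjusted p = 0.00566), below the fold threshold, and it was 0.44 without Dorsal 1, the highest library (adjusted p = 0.01). Adjusted for the share of read pairs on no gene it was 0.89 with an SE of 0.205 (adjusted p = 0.0186).

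Gsg1l (ENSMUSG00000046182, chromosome 7, 125878420 to 126082411, minus strand) was the member with the lowest log2 fold change. It had 6.01, 11.5, 16.3, 10.4 and 12.5 CPM in dorsal and 23.5, 9.23, 11.9, 19.3 and 18.3 CPM in ventral libraries. The ventral libraries 1, 4 and 5 were above all dorsal libraries, and the other ventral libraries were among them. The log2 fold change was -0.56 with an SE of 0.27 (adjusted p = 0.118). It was -0.43 without Dorsal 1 (adjusted p = 0.21) and -0.69 without Ventral 2, when it was called ventral-enriched (adjusted p = 0.0458).

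Among the pore subunits, Gria1, Gria2 and Gria3 were higher in dorsal libraries and Gria4 was lower. Gria2, the subunit that makes the receptor impermeable to calcium, had 1080 to 1310 CPM in dorsal and 593 to 772 CPM in ventral libraries (log2 fold change 0.81, SE 0.10, adjusted p = 7.1e-05). Gria1 had 893 to 962 CPM against 545 to 707 CPM (0.61, SE 0.084, adjusted p = 0.000228), and Gria3 had 248 to 310 CPM against 154 to 188 CPM (0.70, SE 0.10, adjusted p = 0.000246). Gria1, Gria2 and Gria3 were called dorsal-enriched. Gria4, prominent in interneurons, had 43.9 to 62.7 CPM against 58.6 to 77.6 CPM (-0.42, SE 0.13, adjusted p = 0.0251), below the fold threshold. Corrected for GC content and exonic length, the log2 fold changes of Gria2 and Gria3 were 0.18 and 0.39 and that of Gria1 was 0.54 (adjusted p = 0.000403), just under the fold threshold, so that none of the 3 was called, whereas those of Cacng4, Cacng5 and Cacng8 were 1.28, 1.70 and 0.996 and stayed called.

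Relative to the summed TPM of Gria1 to Gria4, none of the summed TARPs, the summed cornichons, Shisa6 and Gsg1l had a higher mean in dorsal than in ventral libraries when all 10 libraries were used. The 6 TARPs together had 261 to 330 TPM in dorsal and 222 to 273 TPM in ventral libraries, and the pore subunits had 962 to 1080 TPM and 510 to 703 TPM. TARP TPM was thus 24.1%, 31.6%, 31.9%, 30.3% and 29.5% of pore subunit TPM in dorsal libraries 1 to 5 and from 32.8% to 45.4% in the ventral libraries, of which Ventral 1 and Ventral 3 were the lowest. These groups did not overlap, with means of 29.5% and 40.6%, and the lowest dorsal value was that of Dorsal 1. With Gria2 left out of the denominator the ratios were 40.9 ± 5.0% and 53.8 ± 7.73% (SD, 5 libraries each), and the groups overlapped.

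Single TARPs took opposite sides of that ratio. Cacng2 was 6.03% to 7.65% of pore subunit TPM in dorsal and 9.74% to 13.5% in ventral libraries, whereas Cacng5 was 1.75% to 2.55% and 0.686% to 1.52%, in both cases without overlap. Cacng4 was 2.83% to 3.56% in dorsal and 0.989% to 3.95% in ventral libraries, where Ventral 2 was above all dorsal libraries. Shisa6 was 13.9 ± 1.59% of pore subunit TPM in dorsal and 15.1 ± 2.39% in ventral libraries, and the cornichons 34.3 ± 10.2% and 38.1 ± 7.28% (SD, n = 5 each), with overlap in both. Without Dorsal 1 the dorsal mean of the cornichons was 38.2%, no longer below the ventral mean of 38.1%. Gsg1l was 0.562% to 1.66% in dorsal and 1.41% to 3.15% in ventral libraries. These ratios are given as a description, without a test. Cacng2 itself had a mean of 72.8 TPM in dorsal and 72.6 TPM in ventral libraries, so its ratio differed through the pore subunits. The TPM used was not corrected for GC content. With the GC content and length correction, the log2 fold changes of Gria1 to Gria4 were 0.54, 0.18, 0.39 and -0.53.

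**Figure D5:**
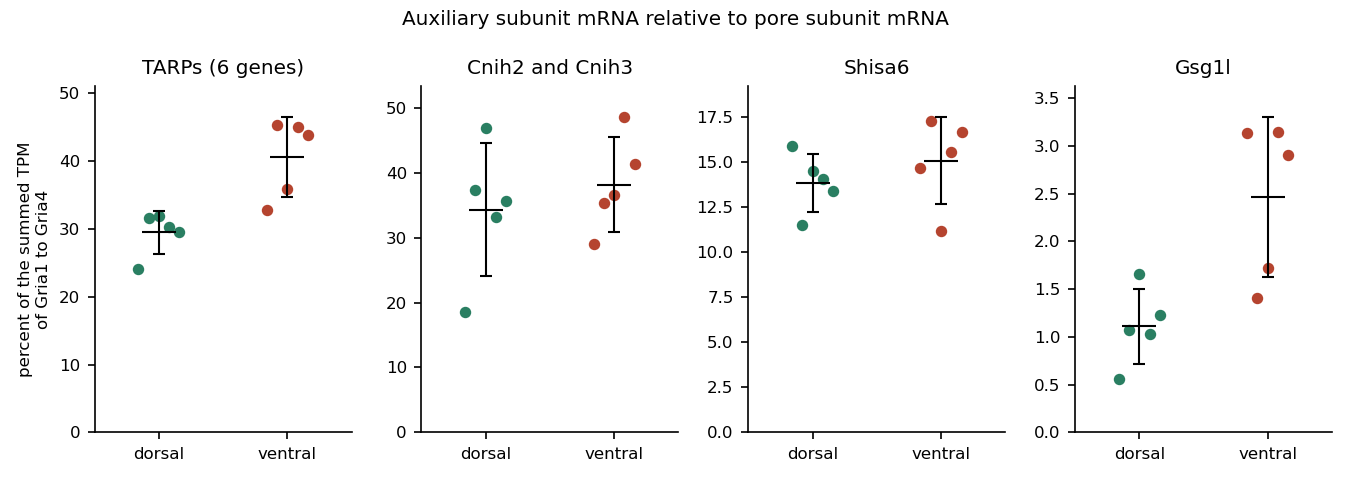
Summed TPM of the 6 TARPs, of Cnih2 and Cnih3, of Shisa6 and of Gsg1l as a percentage of the summed TPM of Gria1 to Gria4, 1 point per library, with the mean and SD of each group and an axis from 0. TARP points are 24.1% to 31.9% in dorsal and 32.8% to 45.4% in ventral libraries, while the points of Shisa6 and of the cornichons overlap.

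A wider list of 33 genes held the pore subunits and other proteins that bind, assemble or place AMPA receptors. Of the 32 that could be tested, 6 were called dorsal-enriched and 3 ventral-enriched, 28.1% together beside 25.5% of all genes tested, and the median log2 fold change was 0.14. With the GC content and length correction 3 were called dorsal-enriched and 4 ventral-enriched, beside 2336 and 1996 of all 16806 genes. With adjustment for the share of read pairs on no gene the calls were 3 and 0, beside 834 and 339 of all genes. Beside Gria1, Gria2 and Gria3, the genes called in dorsal libraries were Shisa7, Syndig1 and Nptx1. Shisa7, which encodes a relative of the Shisa6 protein, had 60.8 to 110 CPM in dorsal and 37.8 to 49.6 CPM in ventral libraries (log2 fold change 0.90, SE 0.15, adjusted p = 0.000858). Syndig1, which encodes a membrane protein that binds AMPA receptors, had 13.4 to 22.5 CPM against 5.10 to 11.4 CPM (0.95, SE 0.23, adjusted p = 0.00652), and Nptx1, a secreted pentraxin that clusters the receptors, had 256 to 288 CPM against 155 to 200 CPM (0.67, SE 0.10, adjusted p = 0.000271).

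The genes of that list called in ventral libraries were Olfm2, Nsf and Grip1. Olfm2, an olfactomedin found in AMPA receptor complexes, had 7.46 to 11.1 CPM in dorsal and 17.1 to 23.5 CPM in ventral libraries (log2 fold change -1.02, SE 0.17, adjusted p = 0.000777). Nsf, the membrane fusion ATPase that also binds the Gria2 protein, had 551 to 658 CPM against 800 to 1050 CPM (-0.62, SE 0.091, adjusted p = 0.000337), and Grip1, a scaffold of the Gria2 and Gria3 proteins, had 10.5 to 27.4 CPM against 18.7 to 42.1 CPM (-0.75, SE 0.25, adjusted p = 0.0303). By role, 3 of 4 pore subunits, 4 of 10 tested other auxiliary or peripheral proteins, 0 of 5 genes for assembly in the endoplasmic reticulum and 2 of 13 scaffold or trafficking partners were called. Shisa8 was not tested, with 0 counts in every dorsal library and 2 to 12 counts in ventral libraries.

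Relatives of the members that are not known as AMPA receptor partners were largely near the floor. Gsg1l2 had at most 1 count in a library, and Gsg1, the namesake of Gsg1l, had at most 4 counts in dorsal and 31 in ventral libraries, with 6 libraries at 0. Gsg1 was called ventral-enriched (adjusted p = 0.0398), and no fold is given at these counts. Among the cornichon relatives, Cnih1 had a log2 fold change of 0.16 with an SE of 0.14 (adjusted p = 0.384) and Cnih4 one of 0.59 with an SE of 0.16 (adjusted p = 0.013), which was called.

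For each member the gene of most similar course was taken from 8489 protein-coding genes with a mean of at least 10 CPM, by Pearson's r of log2 CPM plus 1 over the 10 libraries after each group's mean was removed. These were Klf13 for Cacng2 (r = 0.967), Arl2bp for Cacng3 (0.975), Cnpy2 for Cacng4 (0.969), Gtf2f1 for Cacng8 (0.971) and Brd3 for Cacng5 (0.962). For the others they were Wwp2 for Cacng7 (r = 0.977), Kmt2d for Cnih2 (0.981), Mtap for Cnih3 (0.938), Clptm1l for Shisa6 (0.978) and Abcg4 for Gsg1l (0.961). Each value is the highest of 8489 over libraries that share depth and base composition effects, such as those of Dorsal 1, and is a description. The longest transcript of Cnih2 is 62.3% GC and that of its most similar gene 58.4%, and that of the most similar gene of Cacng8 is 55.6%.

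Cell type markers were checked beside these results. The summed CPM of 7 mossy cell markers was 527 to 596 in dorsal and 1150 to 1390 in ventral libraries, mostly through Calb2, the calretinin gene of ventral mossy cells, with 49.6 to 73.8 CPM against 528 to 725 CPM (log2 fold change -3.24, SE 0.14, adjusted p = 1.06e-08), and Satb1 was the other marker called. Drd2, the gene of the driver, had 23.3 to 31.7 CPM and 17.5 to 27.9 CPM. Of the remaining mossy cell markers Csf2rb2 was at most 1.04 CPM, and Calcrl, Nmb and Ociad2 were not called. The summed CPM of 6 oligodendrocyte markers was higher in dorsal libraries without overlap, 2200 to 2570 CPM against 791 to 1450 CPM, with 3 of 6 called dorsal and 0 ventral. Mobp, which encodes a myelin protein, had 151 to 213 CPM in dorsal and 75.5 to 132 CPM in ventral libraries (log2 fold change 0.85, SE 0.15, adjusted p = 0.00127). The sum of this list moved in the direction of Cacng4, Cacng5 and Cacng8, and its part in these results was not tested.

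The other lists overlapped between the groups in summed CPM. The 10 interneuron markers had 3580 to 4600 CPM in dorsal and 4410 to 5620 CPM in ventral libraries, above the mossy cell sum in every library, with 0 called dorsal and 3 called ventral. Gad2 alone had 2390 to 3410 CPM in dorsal and 2660 to 3600 CPM in ventral libraries. Sums over different genes do not measure how much RNA each cell type gave. Markers of CA2 pyramidal cells had 163 to 207 CPM and 125 to 176 CPM with 0 of 6 called, and those of oligodendrocyte precursors had 22.8 to 62.1 CPM and 32.6 to 56.8 CPM, also with 0 of 6 called. Granule cell markers had 836 to 1020 CPM against 772 to 1040 CPM, those of CA1 had 175 to 256 CPM against 252 to 374 CPM, and those of CA3 had 589 to 884 CPM against 638 to 930 CPM. Astrocyte markers had 298 to 387 CPM against 248 to 398 CPM, with 4 of 7 called dorsal and 1 ventral, microglial markers had 21.9 to 23.7 CPM against 12.9 to 33.6 CPM, and endothelial markers had 7.14 to 30.3 CPM against 8.61 to 45.2 CPM. No marker of any list was at 0 in all libraries.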

How the data were processed

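Ribosome-bound RNA of 5 dorsal and 5 ventral pools was amplified (Ovation), sequenced as 50 bp pairs and, per the submitters' processing notes, processed with STAR 2.5.2b and HTSeq 0.7.2 on GRCm38; annotation release and strand setting are not given in the sources used here. The deposited values are raw counts per Ensembl gene, without normalization by the authors. Groups came from the sample labels. GENCODE M21 gave symbols for 54809 of 54838 identifiers, positions and exonic lengths.

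Genes reaching more than 1 CPM in 2 or more libraries were kept, scaled by TMM and compared by the quasi-likelihood test of edgeR 4.0.16 (R 4.3.3), with Benjamini-Hochberg adjustment over all genes kept. Calls needed an adjusted p under 0.05 and a log2 ratio of mean CPM plus 1 beyond 0.58 in either direction. SEs were obtained from the fold change and the square root of the F statistic. On data simulated from these libraries (16058 genes tested, 200 changed), 63% of 2-fold and 94% of 4-fold changes were called, with 11 false calls. The changed genes were drawn only above a mean CPM higher than the filter's, so these rates do not cover the lowest genes kept. Shares were compared by two-sided exact permutation tests (scipy 1.17.1). Chi-square per degree of freedom between libraries within a group was at least 4.36, so none was a second sequencing of another. The lowest values were 4.36 for Dorsal 4 with Dorsal 5 and 8.11 for Dorsal 3 with Dorsal 5, and the highest was 45.1. Whether any libraries were made separately from the same RNA was not tested. Floors cover counting error only, since PCR reads lacking molecular identifiers cannot be taken as separate molecules.

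The members and lists were chosen with earlier results of these data known. Named were all 10 members, the 4 pore subunits, every called gene of the wider list, the most similar gene of each member, and single markers of lists that did not overlap. The relatives, Prkca and Gad2 fall outside this rule and were chosen with their values in view. Single values of some genes that the rule covers are not reported here. Alternatives were DESeq2 1.42.0 and its size factors, upper-quartile factors, library totals, other filters and thresholds, a replicate block, a GC content and length correction (mgcv 1.9.3), both together, the no-feature share as a covariate, each library left out and, added after seeing the data, the dispersions of edgeR 3.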

Additional observations from a re-analysis of the deposited data

Results flagged for a closer look

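In a group of 5 libraries, a library was set apart when its gap to the nearest other exceeded 0.71 of the group's range, which chance gives in about 1 in 20 groups. Of 42 groups checked (10 members, 4 pore subunits and 7 shares, each in dorsal and ventral libraries), 4 held such a library, all of them dorsal. Dorsal 2 was apart for Cacng7 with 70.6 CPM, against 40.8 to 48.4 CPM in the other dorsal libraries, and for the share of Cacng7 in TARP CPM with 24.8%, against 15.1% to 17.7%. Without Dorsal 2 the log2 fold change of Cacng7 was -0.18 (adjusted p = 0.321), and its share differed by -4.16 percentage points (exact permutation, adjusted p = 0.037). Dorsal 2 was set apart by this same share, so the difference in share is a description and not a test result. Dorsal 2 was also apart for Gria2 with 1310 CPM, against 1080 to 1120 CPM, and Gria2 had a log2 fold change of 0.76 without it (adjusted p = 0.000183). Dorsal 1 was apart for Gria4 with 62.7 CPM, against 43.9 to 47.9 CPM, and without it the log2 fold change of Gria4 was -0.50 (adjusted p = 0.00633).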

How the results depend on the processing

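Cacng5 was called in all 23 alternatives, with log2 fold changes of 1.57 to 1.85, and Cacng4 in 22, with 1.08 to 1.48; adjusted for the no-feature share, which does not overlap between the groups, Cacng4 had 1.46 (adjusted p = 0.0703). Cacng8 was called in 18 of 23, with values of 0.44 to 1.13, and its call was lost without Dorsal 2, Ventral 3 or Ventral 5, with the replicate block (0.88, adjusted p = 0.055) and with that covariate (0.44, adjusted p = 0.713). Members called dorsal-enriched numbered 1 with the covariate (the fold criterion there being the ratio of unadjusted mean CPM, which keeps Shisa6 uncalled), 5 without the fold threshold and 2 to 4 when a library was left out, and those called ventral-enriched 0 to 1. The wider list gave 10 dorsal and 4 ventral calls without the fold threshold. With the GC content and length correction, alone or with the replicate block, it gave 3 dorsal and 4 ventral calls. The covariate gave 3 dorsal and 0 ventral calls, and leaving out a library gave 5 to 7 dorsal and 1 to 3 ventral calls. There was 1 ventral call without Dorsal 2 or without Ventral 1. The call of Gria1 was also lost without Ventral 4 (0.576, adjusted p = 0.00119), its CPM ratio falling under the threshold. The cause was not tested. Without a library, the shares differed by 5.20 to 6.70 percentage points for Cacng4 (adjusted exact permutation p 0.0278 to 0.0556), 4.61 to 5.36 for Cacng5 (the same), -9.93 to -6.17 for Cacng2 (0.0278 to 0.185), -5.26 to -1.48 for Cacng3, 1.63 to 3.60 for Cacng8 (0.0278 to 0.194), -4.16 to -1.35 for Cacng7 (0.037 to 0.648) and -4.48 to 1.81 for Cnih2, where 5 against 4 libraries allow no p under 0.0159. Same-numbered libraries had correlated deviations of -0.0317 to 0.0695, which gives no sign that the numbers pair the pools and does not show that they are unpaired, and 3 of 10 libraries correlated best with their own number. Sign-flips by replicate number (replicate block), which cannot go below an exact p of 0.0625, left the differences of 5.83 points for Cacng4 and 5.03 for Cacng5 at an adjusted p of 0.219. Over all genes the block gave 2656 dorsal and 1672 ventral calls, against 2636 and 1655 without it, and the covariate 834 and 339.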
